A study of Mus musculus with 14 samples.

Results

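The genes described here encode the receptors, the kinase and the transcription factors through which prolactin and growth hormone act, together with the proteins that dampen or carry the signal. They were chosen by name, without a threshold on their values but with earlier results of these data known, and all 10 (*Prlr*, *Ghr*, *Jak2*, *Stat5a*, *Stat5b*, *Cish*, *Socs1*, *Socs2*, *Socs3* and *Ptpn11*) are among the 20550 genes listed for each mouse. The data are exon and intron FPKM (fragments per kilobase of sequence, scaled to the size of the library) from total RNA of mammary tissue at day 10 of lactation (L10). Both mice carried the genotype WT/wTbrg4, which is 1 wild-type chromosome and 1 on which CRISPR-Cas9 removed the sequence between *Tbrg4* and the *Wap* promoter, so that the *Wap* super-enhancer and promoter drive *Tbrg4*. The mice were made on the C57BL/6 background, and their age is not given in the sources used here. No wild-type RNA-seq file was used, so the fusion allele is shared by all the values and no genotype was compared. The 12 ChIP-seq samples of the series, which include STAT5, H3K27ac and Pol II, are not analysed here.

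Prolactin binds its receptor on mammary epithelium, which brings JAK2 molecules at the receptor close together so that they phosphorylate each other and the receptor. STAT5A and STAT5B then dock through their SH2 domains, are phosphorylated, form dimers and bind DNA at the palindrome TTCNNNGAA. In mammary tissue this pathway drives alveolar development and the milk protein genes. CISH and the SOCS proteins are feedback inhibitors whose own genes are targets of STAT proteins in many cell types.

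The promoters of these genes were searched for that palindrome, and the matches are shown first. RefSeq promoter windows on GRCm38.p6, from 250 bases before to 50 bases after a start site, were found for 9 of the 10 genes, in 14 windows. *Socs2* has no window there. The search used the letters TTCNNNGAA, which read the same on both strands. The motif lies in 8.30% of all 32851 windows and in 3 of the 14 windows here, 1 each of *Cish*, *Socs3* and *Prlr*. Enrichment was not tested. The stretches below are written 5′ to 3′ on the strand of the gene, with each match in capitals. *Cish* (chr9:107296624-107296683, plus strand) has a pair of matches at the start site itself. *Socs3* (chr11:117969477-117969555, minus strand) has 1 match, and so does the window at the middle of the 3 *Prlr* start sites (chr15:10223761-10223839, plus strand).
Cish: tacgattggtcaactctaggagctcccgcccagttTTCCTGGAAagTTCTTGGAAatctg
Socs3: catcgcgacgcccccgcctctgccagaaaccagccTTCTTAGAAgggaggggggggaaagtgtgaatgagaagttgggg
Prlr: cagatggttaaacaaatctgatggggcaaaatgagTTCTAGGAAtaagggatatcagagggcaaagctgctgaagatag

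The *Cish* matches TTCCTGGAA and TTCTTGGAA occupy bases 1 to 9 and 12 to 20 from the RefSeq start site, so they begin 11 bases apart. Only 150 windows (0.457%) hold 2 or more matches, and 8 of the 32851 (0.0244%) hold a pair that begins 9 to 15 bases apart. Of these 8, *Tlr6* and *Scg5* are the others that have exon values in the files (0.5 and 4.2 FPKM, and 0.1 and 0 FPKM, in replicates 1 and 2). The range of 9 to 15 bases was not among the planned results, and it includes the spacing of *Cish*. How unusual the *Cish* pair is was therefore not tested. The *Socs3* match TTCTTAGAA spans bases -154 to -146 and the *Prlr* match TTCTAGGAA spans bases -110 to -102 from their start sites. No match was found in the windows of *Ghr*, *Jak2*, *Stat5a*, *Stat5b*, *Socs1* and *Ptpn11*, which says only that these letters are not in those windows.

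*Stat5a* and *Stat5b* lie head to head on chromosome 11. The *Stat5a* windows searched above belong to starts at 100859656 and 100860484. The outermost RefSeq starts, used here, are 100850581 for *Stat5b* on the minus strand and 100859351 for *Stat5a* on the plus strand. They leave 8769 bp between them. This interval holds 3 matches to the motif. TTCCAGGAA lies at 100854345 to 100854353, TTCCCAGAA at 100856101 to 100856109 and TTCTCTGAA at 100856180 to 100856188, centered 5002, 3246 and 3167 bp upstream of the *Stat5a* start. The number is not unusual, since 58.6% of 13539 chromosome 11 windows of the same length hold at least 3. A match is a description of the reference, and no binding was measured here.

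The depth of the libraries is unknown because read counts are not given, so the spread between the 2 mice is the error available. All values were deposited with 1 decimal, so that each lies within 0.05 FPKM of the printed number. The libraries differ in ways that touch the values below. All exon values together summed to 852961 and 1788119 FPKM in replicates 1 and 2, the casein gene *Csn2* had 108555 and 481937 FPKM, and the log2 ratio between the mice followed exon GC content across 9839 genes (Spearman rho of -0.659, where genes are not independent). Luminal epithelial markers were present in both libraries (summed 519.2 and 407.6), all 6 at a mean of at least 7.45 FPKM. Of these, *Elf5* (185.8 and 204.8), *Epcam* (134.0 and 112.0) and *Cdh1* (12.1 and 14.6) were similar in the mice. The keratin genes *Krt18* (145.0 and 57.6), *Krt8* (31.4 and 14.6) and *Krt19* (10.9 and 4.0) were more than 2-fold lower in replicate 2 as deposited. After the correction for GC content described below, the log2 ratios of the keratin genes were -0.84, -0.53 and -0.70, which is less than 2-fold. Markers of adipocytes (summed 649.9 and 731.1), myoepithelium (113.5 and 72.6), endothelium (50.5 and 43.7), fibroblasts (141.2 and 137.0), leukocytes (14.7 and 11.3) and liver (114.3 and 210.3, mostly *Alb*) were also detected, with *Acta2* listed at 0 in both mice and the T and B cell markers *Cd3e* and *Cd79a* at 0 in replicate 1. Genes listed as markers of several cell types were thus detected, but cell composition was not measured. In bulk RNA, fewer cells of a type and less RNA per cell cannot be told apart. The part of each cell type in the values below was not tested.

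Of the 10 genes, the receptors had the highest and the third highest mean exon FPKM. *Prlr*, the prolactin receptor, had an exon FPKM of 20.0 in replicate 1 and 25.9 in replicate 2 (mean 22.9 ± 4.17, SD, n = 2). *Ghr*, the growth hormone receptor, had 14.9 and 25.6 (20.3 ± 7.57). *Prlr* was thus 1.34 times *Ghr* in replicate 1 and 1.01 times in replicate 2, so that their ranges overlapped and the receptors did not differ beyond the spread between the mice. Both were higher in replicate 2 as deposited. This direction depends on the scaling. With each mouse rescaled to a summed exon FPKM of 1000000, *Prlr* was at 0.618 and *Ghr* at 0.820 times replicate 1, beside a median of 0.445 over 9844 genes. All 10 genes were then lower in replicate 2, but so is any gene with equal deposited values, such as *Stat5a* at 0.477. The count of 10 is thus not a result about these genes. After the correction for GC content described below, *Prlr* was no longer higher in replicate 2. RefSeq gives *Prlr* 3 transcripts of 1079 to 10328 bases, the long and short forms of the receptor, and *Ghr* 3 of 1335 to 4302 bases, including the soluble binding protein. The deposited FPKM are calculated over the merged exons of all forms (13415 and 4518 bp in RefSeq), and do not separate them. The mean of *Prlr* was at percentile 86.9 among the 9845 genes that averaged at least 1 FPKM in exons, whose median was 5.70.

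*Jak2*, the tyrosine kinase attached to both receptors, had 10.7 and 12.0 FPKM (11.3 ± 0.919). It was below *Prlr* in both mice, with *Prlr* 1.87-fold and 2.16-fold higher. *Ptpn11*, which encodes the phosphatase SHP2 that binds the activated receptor and has been described as a positive mediator of prolactin signals, had 8.2 and 6.5 FPKM (7.35 ± 1.20). *Jak2* exceeded *Ptpn11* 1.30-fold and 1.85-fold, and the ranges did not overlap.

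*Stat5a* had 21.0 FPKM in both mice. *Stat5b*, its close paralog, had 14.1 and 12.6 (13.3 ± 1.06). The ratio of *Stat5a* to *Stat5b* was 1.49 and 1.67 (mean 1.58 ± 0.125, SD, n = 2), and their ranges did not overlap. Together they reached 35.1 and 33.6 FPKM, of which *Stat5a* contributed 59.8% and 62.5%. With 2 mice, a two-sided exact permutation test that pairs the genes within each mouse cannot give a p below 0.5, so no test was made. No place on the GRCm38 chromosomes outside either gene matched its coding sequence over at least 50% of the length at an identity of at least 95%, so no near-identical copy was found for either paralog.

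The feedback genes covered the widest range. *Cish*, an SH2 protein that competes for STAT5 docking sites, had 8.6 and 8.5 FPKM (8.55 ± 0.0707). *Socs2*, a regulator of growth hormone signaling, had 8.3 and 16.4 (12.3 ± 5.73). *Cish* and *Socs2* were nearly equal in replicate 1 (ratio 1.04), and *Cish* was lower in replicate 2 (0.518), so their order is not settled by these mice.

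*Socs3*, which restrains signaling through gp130 and STAT3 as well as JAK2, had 3.4 and 1.1 FPKM (2.25 ± 1.63), and *Socs1*, a direct inhibitor of JAK kinases, had 0.1 in both. *Socs1* and *Socs3* were lower than every other gene of the set in both mice. *Cish* exceeded *Socs3* 2.53-fold and 7.73-fold. One near-identical copy of the *Socs2* coding sequence (597 bp of 2698 exonic bp) lies elsewhere in GRCm38, and how reads shared with it were counted was not tested. None was found for the other 9 genes.

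**Figure D1:**
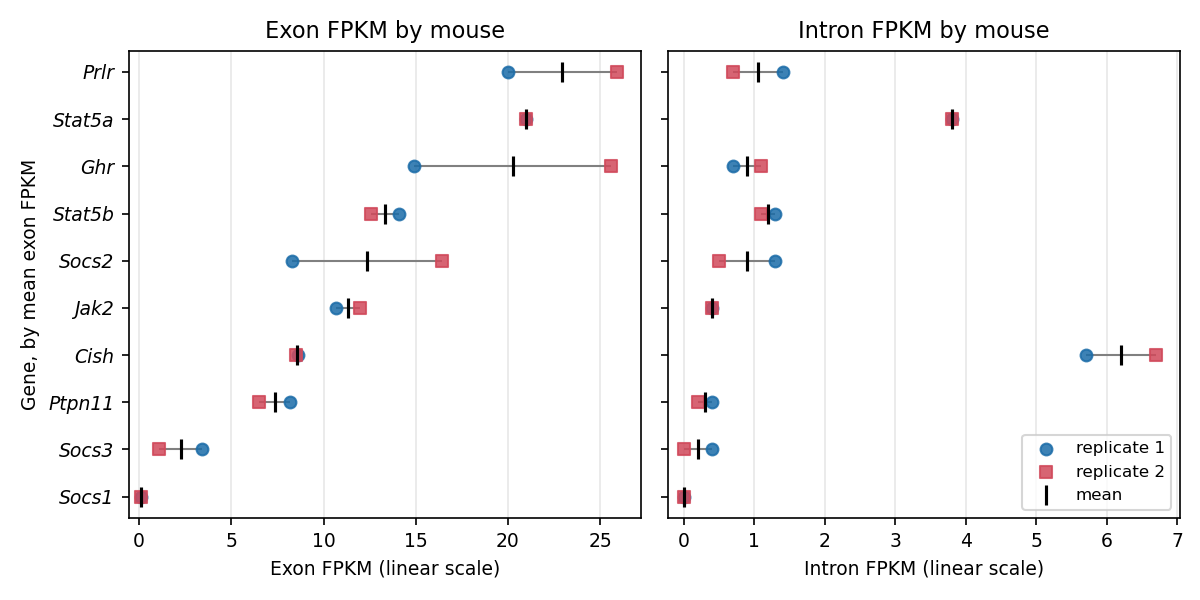
Exon FPKM (left) and intron FPKM (right), on linear axes, of the 10 genes in each of 2 WT/wTbrg4 mice at L10, ordered by mean exon FPKM. Circles are replicate 1, squares replicate 2, black ticks the mean and grey lines the range, and *Cish* has the highest intron FPKM (5.7 and 6.7) although its exon FPKM (8.6 and 8.5) is in the lower part of the order.

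Ordered by mean exon FPKM, the genes ran *Prlr*, *Stat5a*, *Ghr*, *Stat5b*, *Socs2*, *Jak2*, *Cish*, *Ptpn11*, *Socs3* and *Socs1*. Among neighbors in this order, *Prlr* and *Stat5a*, *Stat5a* and *Ghr*, *Stat5b* and *Socs2*, and *Socs2* and *Jak2* overlapped and changed places between the mice. The steps from *Ghr* to *Stat5b*, *Jak2* to *Cish*, *Cish* to *Ptpn11*, *Ptpn11* to *Socs3* and *Socs3* to *Socs1* had the same direction in 2 of 2 mice, with ranges that did not overlap. In replicate 1, however, *Ghr* and *Stat5b* (14.9 and 14.1) and *Cish* and *Ptpn11* (8.6 and 8.2) were close. The inhibitors *Socs3* and *Socs1* were at the bottom in both mice.

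Reads on introns come largely from unspliced RNA, and they gave another order. *Cish* had 5.7 and 6.7 intron FPKM (6.20 ± 0.707), above every other gene of the set in both mice. *Stat5a* followed with 3.8 in both, and *Stat5b* with 1.3 and 1.1 (1.20 ± 0.141). *Stat5a* was thus 2.92-fold and 3.45-fold above *Stat5b* in introns, a larger gap than in exons in both mice. 

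*Prlr* had an intron FPKM of 1.4 and 0.7, *Ghr* 0.7 and 1.1, and *Socs2* 1.3 and 0.5, and these genes overlapped. *Jak2* had 0.4 in both mice and *Ptpn11* 0.4 and 0.2. *Socs3* was at 0.4 and then listed at 0, and *Socs1* was listed at 0 in both, over RefSeq introns of only 556 and 389 bp.

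For *Cish*, the exon FPKM was only 1.51 and 1.27 times the intron FPKM (mean 1.39 ± 0.170, SD, n = 2). Rounding to 1 decimal allows 1.49 to 1.53 and 1.25 to 1.29. Among 9535 genes that averaged at least 1 FPKM in exons and had introns above 0, whose median ratio of exon to intron was 15.3, *Cish* had the 60th lowest ratio (percentile 0.629). RefSeq gives *Cish* 3 merged exons with 3014 bp and introns of 3112 bp, places no other gene over it, and GENCODE M21 lists no retained-intron transcript among its 5 transcripts. The introns that the authors used come from UCSC known genes and may differ from these.

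*Stat5a* also had a low ratio of 5.53 in both mice (percentile 10.4). The *Stat5b* ratio was higher, at 10.8 and 11.5 (percentile 34.5). *Jak2* (26.8 and 30.0), *Ptpn11* (20.5 and 32.5) and *Ghr* (21.3 and 23.3) were above the median of all genes in both mice. *Prlr* moved from 14.3 to 37.0 and *Socs2* from 6.38 to 32.8 between the mice, since their exon values were higher and their intron values lower in replicate 2.

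**Figure D2:**
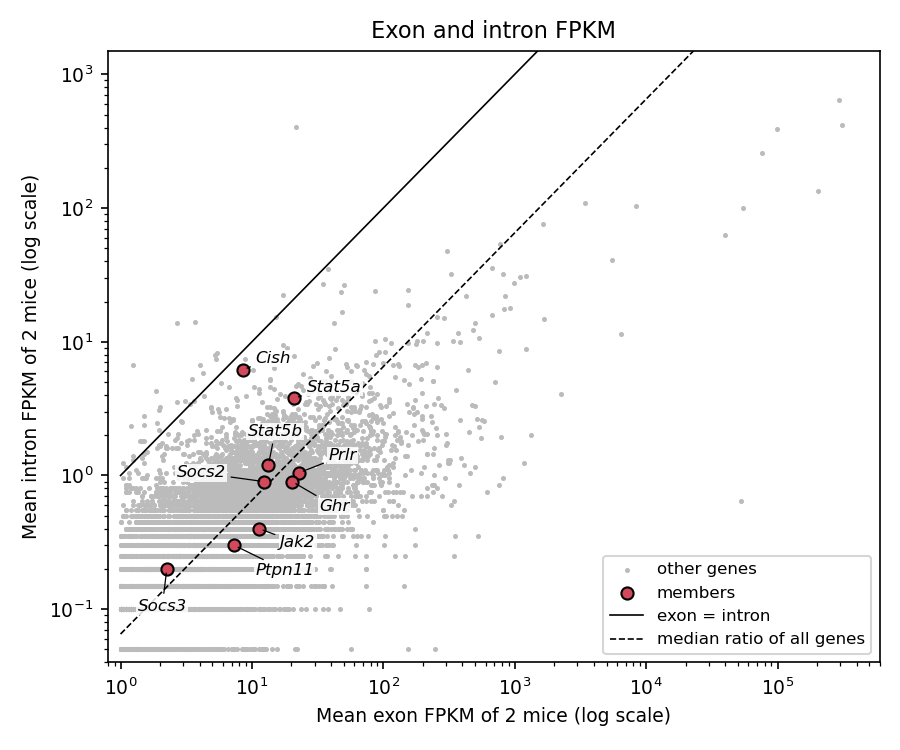
Mean intron FPKM against mean exon FPKM over 2 mice, both on log axes, for 9535 genes that averaged at least 1 exon FPKM and had introns above 0 (grey) and for the 9 members among them (red). The solid line marks equal values and the dashed line the median ratio of all genes (15.3), and *Cish* and *Stat5a* lie above the dashed line with ratios of means of 1.38 and 5.53.

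FPKM are per kilobase, and the introns of these genes differ widely in length. Multiplied by RefSeq lengths, introns held an estimated 72.0% of the *Ghr* signal, over 261080 bp of introns, compared with a median of 30.1% in 9530 genes. *Stat5a* had 49.9%, *Cish* 42.8%, *Stat5b* 41.2% and *Prlr* 35.1%, while *Ptpn11* (28.7%) and *Jak2* (28.1%) lay near the median. These shares are from the means of the 2 mice. By mouse, *Prlr* (45.3% and 24.2%) and *Ptpn11* (32.4% and 23.3%) lay on both sides of that median. *Socs2* (6.73%) and *Socs3* (1.78%) were low. In the *Ghr* region, the annotated noncoding gene *Gm41254* overlaps 67868 bp on the opposite strand, including 3966 bp of *Ghr* exons. The kit marks strand, but the strand setting of the counting is not given in the sources used here, so reads from the 2 genes may not be separated.

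The spread between the mice was next set against that of all genes, on the scale log2((replicate 2 + 1)/(replicate 1 + 1)). Of the 9 genes with a mean of at least 1 FPKM (all but *Socs1*), 1 was more than 2-fold apart, *Socs3* at -1.07, beside 5.9% of the 9845 genes in either direction and 4.82% with replicate 1 higher, the direction of *Socs3*. *Socs2* at 0.90 and *Ghr* at 0.74 were the next most different. *Stat5a* (0.00), *Cish* (-0.02), *Stat5b* (-0.15) and *Jak2* (0.15) differed least. The median size of the difference was 0.29 over the 9 and 0.33 over all genes.

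Exon GC content of these genes ranged from 40.2% in *Prlr* and 41.7% in *Ghr* to 55.8% in *Stat5a*, 59.4% in *Socs3* and 64.1% in *Socs1*. Genes below 45% GC had a median log2 ratio of 0.29, and genes from 55 to 60% had -0.54. *Prlr* (0.36) and *Ghr* (0.74) had the sign of their GC class, as did *Socs3*. *Stat5a* (0.00) and *Cish* (-0.02) lay above the median of the 55 to 60% class. After a lowess fit on GC content was removed, *Prlr* was at -0.02, *Ghr* at 0.44, *Socs3* at -0.36, *Stat5a* at 0.43 and *Cish* at 0.41, and *Socs2* kept 0.93, the largest difference of the 9. None of the 9 was then more than 2-fold apart, beside 1.91% of 9839 genes, so the count is not a result about these genes. The cause of the GC relation was not tested.

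**Figure D3:**
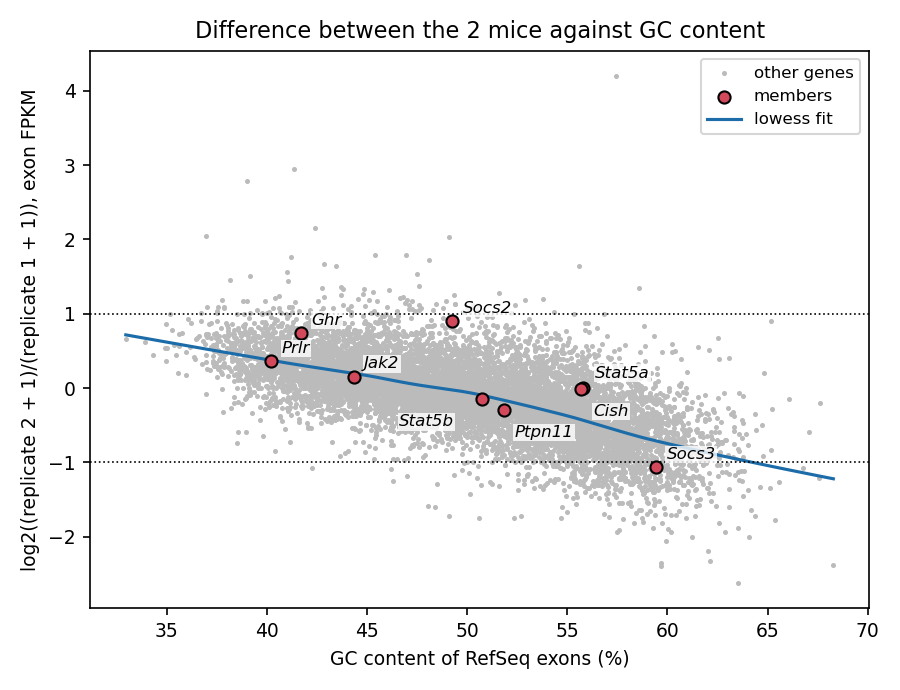
The log2 ratio of exon FPKM + 1 between replicate 2 and replicate 1 against the GC content of RefSeq exons, for 9839 genes (grey) and the 9 members with a mean of at least 1 FPKM (red). The blue line is the lowess fit and dotted lines mark 2-fold, and *Socs3* is past the lower line at -1.07 while *Socs2* is the member farthest above the fit.

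In introns, 6 of the genes reached a mean of 0.5 FPKM, and *Socs2* was the 1 that differed more than 2-fold, beside 6.52% of 4220 genes in either direction and 3.86% with replicate 1 higher. Its log2 ratio with a pseudocount of 0.1 was -1.22, the opposite direction to its exons. *Prlr* was at -0.91 in introns. *Stat5a* was at 0.00, *Stat5b* at -0.22, *Cish* at 0.23 and *Ghr* at 0.58.

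By 4 values per gene (log2 exon FPKM + 1 and log2 intron FPKM + 0.1 in each mouse), the genes nearest to *Stat5a* were *Slc25a45* (Euclidean distance 0.329) and *Clk1* (0.404). Those nearest to *Prlr* were *F11r* (0.271) and *Abhd17c* (0.292). Nearest to *Cish* were *Epb41l4aos* (0.381) and *Carmn* (0.436), both noncoding RNA genes, with 8.5 and 9.1 exon FPKM and 6.9 and 8.0 intron FPKM for *Epb41l4aos*. This likeness rests on 2 mice of 1 genotype.

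Of 68 other genes of the pathway, listed by role, 54 had a mean exon FPKM of at least 1, beside 9845 of the 20515 genes used. The lists were chosen with earlier results of these data known. This count and those by list below therefore do not show whether the pathway stands out. Of these 54, 30 were higher in replicate 2 and 22 in replicate 1. The median log2 ratio of all genes was -0.08, but their count by direction was not made. Since the ratio followed GC content, no lean of the pathway is read from this. Past 2-fold were 4 of the 54 (7.41%), beside 5.9% of all genes, both without the GC correction. The genes of the hormones themselves, *Prl* and *Gh*, which are expressed mainly in the pituitary, were listed at 0 in both mice, like *Epo* and *Csf2*. The exception among the ligands was *Igf1*, a growth hormone target, at 4.6 and 14.9 FPKM, which was past 2-fold with a log2 ratio of 1.51. *Igf1* and *Ghr* were thus both higher in replicate 2 as deposited. Both have a low GC content (39.1% and 41.7%), in a class with a median log2 ratio of 0.29. After the GC correction *Igf1* was at 1.08 and *Ghr* at 0.44. As deposited, the adipocyte markers *Adipoq* (85.3 and 113.0), *Fabp4* (501.7 and 564.0) and *Cidec* (33.7 and 35.6) were higher in replicate 2 too. *Plin1* (7.8 and 2.6), *Lep* (5.6 and 4.3) and *Lipe* (15.8 and 11.6) were lower. The GC correction turned the sign of *Fabp4* (log2 ratio of 0.17 to -0.06) and of *Lipe* (-0.42 to 0.17). The other adipocyte markers kept theirs. The fibroblast marker *Dcn* (42.9 and 78.4) was higher and *Col1a1* (23.5 and 11.2) lower. Their part in the *Ghr* and *Igf1* values was not tested.

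Among the other JAK and STAT genes, 7 of 8 reached 1 FPKM. *Jak1*, the kinase of interferon and gp130 receptors, had 31.2 and 35.1 FPKM and was above *Jak2* in both mice. *Stat3*, the factor activated at weaning, had 29.2 and 20.9, which overlapped neither *Stat5b* nor *Jak2* and overlapped *Stat5a*, *Prlr* and *Ghr*. *Stat6* had 18.8 and 18.1. None of the 7 was more than 2-fold apart between the mice.

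Of 16 other cytokine receptor genes, 8 reached 1 FPKM. The interferon gamma receptor gene *Ifngr1* (72.1 and 64.7), the gp130 gene *Il6st* (24.2 and 25.6), the LIF receptor gene *Lifr* (14.7 and 17.6) and *Ifngr2* (9.6 and 10.9) were highest. *Il6st* was thus in the range of *Prlr*. The receptors of erythropoietin (*Epor*, 0.6 and 0.1) and leptin (*Lepr*, 0.1 and 0.2), which also signal through JAK2, were low. Both were below *Prlr* and *Ghr* in both mice. In all, 14 of the 68 listed pathway genes had a mean above that of *Prlr*. The shared cytokine receptor subunit *Csf2rb*, also coupled to JAK2, had 8.0 and 9.4.

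All 16 of the other feedback genes reached 1 FPKM, at means from 1.55 to 15.4. The highest were *Rnf7* (13.9 and 16.9), a subunit of the ubiquitin ligases to which SOCS proteins bind, *Socs4* (6.4 and 7.9), *Pias2* (5.5 and 8.3) and *Ptpn6* (6.8 and 4.4). *Pias4*, of the PIAS family of STAT inhibitors, was the feedback gene past 2-fold, at 3.0 and 0.9 FPKM with a log2 ratio of -1.07. Its GC content is 59.9%, and after the GC correction it was at -0.33. *Socs4* and the further family members *Socs5*, *Socs6* and *Socs7* were all above *Socs1*, and *Socs4* was above *Socs3* in both mice. Of the 10 adaptor genes, all reached 1 FPKM, led by *Irs1* (51.2 and 54.1), *Src* (30.3 and 15.3), *Irs2* (16.9 and 10.6) and *Gab1* (8.2 and 8.6).

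Of 13 targets and partners of STAT5, 12 reached 1 FPKM and *Tnfsf11*, which encodes RANKL, was listed at 0 in both mice. The milk protein genes *Csn2* (108555 and 481937), *Wap* (172935 and 234774) and *Csn1s1* (48052 and 150368) were followed by *Elf5* (185.8 and 204.8), an alveolar transcription factor. *Csn2* and *Csn1s1* were past 2-fold as deposited, with log2 ratios of 2.15 and 1.65, and *Stat5a* was at 0.00 and *Stat5b* at -0.15. After the GC correction *Csn2* was at 1.87, *Csn1s1* at 1.41, *Wap* at 0.67, *Stat5a* at 0.43 and *Stat5b* at -0.05. A relation between the STAT5 genes and the milk protein genes was not tested. The means of the list thus span from 0 to 295246 FPKM in the same libraries in which *Stat5a* and *Stat5b* had 35.1 and 33.6 FPKM in sum.

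**Figure D4:**
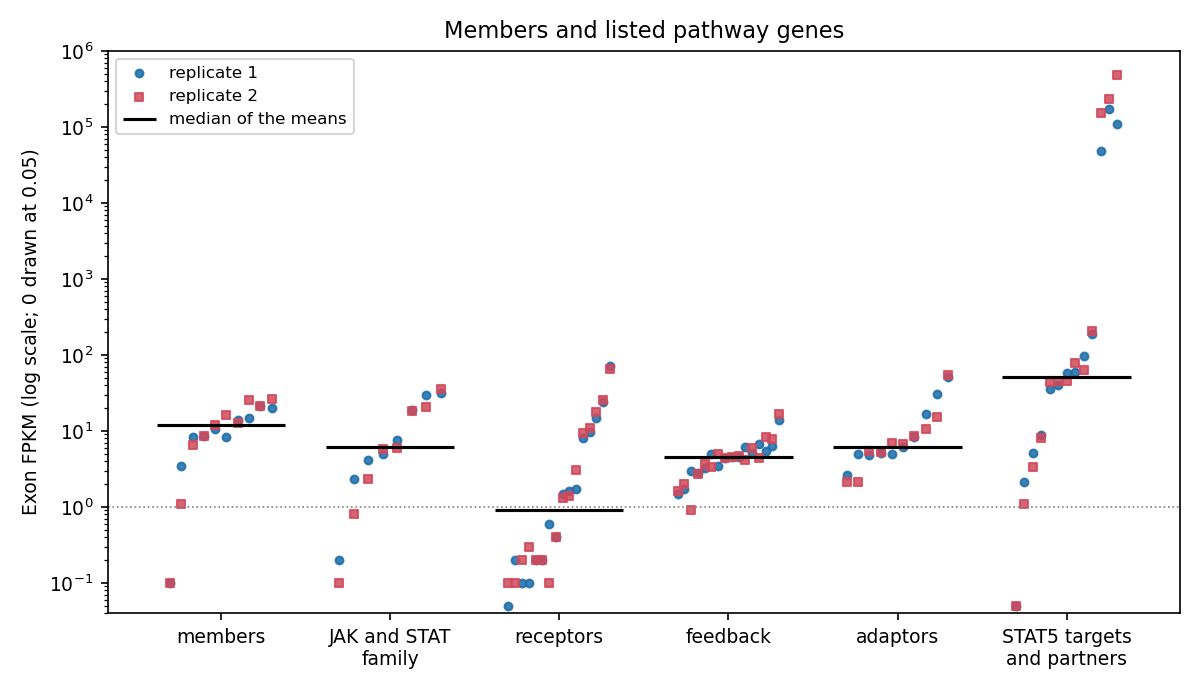
Exon FPKM on a log axis of the 10 members and of listed genes by role, with circles for replicate 1, squares for replicate 2 and values of 0 drawn at 0.05. Black lines are medians of the means, and the means of the members have a median of 11.8 FPKM and run from 0.1 to 22.9, while the milk protein genes at the right have means of 99210 to 295246 FPKM.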

How the data were processed

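Total RNA-seq was available for 2 WT/wTbrg4 mice. The authors prepared TruSeq Stranded Total RNA libraries, aligned reads to mm10 with STAR, counted exons and introns of UCSC known genes with HTSeq and calculated the deposited FPKM with DESeq2. Versions, strand setting and treatment of multiply mapped reads are not given in the sources used here. FPKM were used as deposited, with 35 of 20550 rows lacking a usable symbol left out. Differences between the mice used a pseudocount of 1 (introns 0.1) over genes averaging at least 1 FPKM in exons (0.5 for introns). Lengths and GC content came from curated RefSeq transcripts on GRCm38.p6 (99.7% of genes matched), the assembly called mm10. GC content was corrected with lowess over 30% of genes, which was tested on simulated data. Copies were sought with minimap2 2.31. With 1 genotype, no test between groups was made.

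Members and gene lists were chosen with earlier results of these data known. Named genes are the members, the 4 highest genes of each list (1 of which is not reported here), all ligands, and the 2 nearest genes to *Stat5a*, *Prlr* and *Cish*. Further genes (*Csf2rb*, *Epor*, *Lepr*, *Socs5* to *Socs7*, *Tnfsf11*, *Tlr6*, *Scg5*, *Pias4* and markers) were named after their values were seen. Alternatives to pseudocount, filter, scaling, mean and GC content were run, and each mouse was left out. Analyses ran in Python 3.11.15 (pandas 2.3.3, numpy 2.4.6, statsmodels 0.14.6, scipy 1.17.1), with plots by matplotlib 3.10.9.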

Additional observations from a re-analysis of the deposited data

How the results depend on the processing

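Of 126 values recomputed with both mice, 100 moved by no more than the SD between the mice or, for log2 ratios, kept their sign and their side of 2-fold, while counts stayed within 1.5 times. This tolerance is wide where the mice differ. Dropping either of 2 mice cannot move a mean by more than its SD, so those 64 values say little about stability. The ratio of *Stat5a* to *Stat5b* then ran from 1.49 to 1.67, of *Prlr* to *Ghr* from 1.01 to 1.34, of *Cish* to *Socs2* from 0.518 to 1.04, and pathway genes at 1 FPKM from 52 to 54. With introns in place of exons, the ratio of *Stat5a* to *Stat5b* became 3.19 and that of *Cish* to *Socs2* 8.89. The 1 gene of the set more than 2-fold apart, *Socs3*, became 0 with a mean FPKM of at least 10, where *Socs3* is no longer tested, 0 after centring on the median and 0 after the GC correction. The share of all genes past 2-fold went from 5.9% to 11.2% with a pseudocount of 0.1, 7.42% at a mean of at least 10, 5.37% after centring, 2.92% with no filter and 1.91% with the GC correction. Signs turned for *Prlr* (0.357 to -0.0162) and *Jak2* (0.152 to -0.0455) after the GC correction and for *Cish* after centring (-0.0151 to 0.0608) and the GC correction (to 0.409). Pathway genes fell from 54 to 35 at a threshold of 5 FPKM, and 7.02% of promoters held the motif before the start site alone. No paired analysis was possible because only 1 group has expression values, so no 2 groups share replicate numbers. The depth is unknown, so the counting error of low values such as *Socs1* and the introns of *Ptpn11* cannot be given.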
